A study of Homo sapiens with 18 samples.

Results

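The E2F transcription factor family was followed across the 6 groups of an RNA-seq experiment in LNCaP, a human prostate cancer cell line that responds to androgen. Its members were taken by gene symbol, E2F1 to E2F8, which gave 8 of the 58037 genes in the deposited count table, and all 8 were among the 15185 genes with enough counts to be tested. The medium held 9% charcoal-stripped serum, so it was poor in androgen, and the cells received a non-targeting siRNA pool (control), a pool against E2F1 or a pool against E2F2 by lipid transfection. Either ethanol as vehicle or the synthetic androgen R1881 at 0.1 nM followed, and RNA was taken 48 h later. Transfection preceded treatment by 42 h in one source and by 48 h in another. The 6 groups, control, E2F1 or E2F2 siRNA with vehicle or R1881, held 3 biological replicates each, so every group was transfected and every group was kept in stripped serum. Each pool is a mixture of siRNAs and no separate siRNA or rescue was part of the groups, so an effect of a pool is not necessarily an effect of its target alone.

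E2F proteins bind DNA at the promoters of genes for cell cycle entry and DNA replication, most of them as a pair with a DP protein. E2F1, E2F2 and E2F3 are the classical activators and are held in check by the retinoblastoma protein. E2F4 and E2F5 act mainly with the related pocket proteins p107 and p130 as repressors in resting cells, and E2F6 represses through Polycomb-type complexes without a pocket protein. E2F7 and E2F8 are atypical members that bind DNA without a DP partner and repress E2F target genes, and their own genes are E2F targets. Genes for E2F1, E2F2 and E2F3 carry E2F sites of their own near their start.

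Promoter sequences of E2F1, E2F2, E2F3, E2F4, E2F6 and E2F7 were taken from RefSeq (GRCh38.p14) as windows from 250 bases before to 50 after the start. E2F5 and E2F8 were not searched. E2F sites were searched on both strands as TTTCCCGC, TTTCGCGC, TTTGCCGC or TTTGGCGC, and 3.31% of 35116 RefSeq windows held at least 1. The stretches below run from 120 to 13 bases before the RefSeq start, 5′ to 3′ on the gene's own strand. Those of E2F1, E2F2 and the first E2F3 start are shown because they hold the E2F sites found. E2F7 is shown as a member that moved and whose window had no such match. Capitals mark the E2F sites. The stretches lie at chr20:33686398-33686505 (minus strand), chr1:23531246-23531353 (minus strand), chr6:20401759-20401866 (plus strand) and chr12:77065582-77065689 (minus strand).
E2F1: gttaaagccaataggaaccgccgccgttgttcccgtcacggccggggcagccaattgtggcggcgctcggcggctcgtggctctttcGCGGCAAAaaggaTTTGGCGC
E2F2: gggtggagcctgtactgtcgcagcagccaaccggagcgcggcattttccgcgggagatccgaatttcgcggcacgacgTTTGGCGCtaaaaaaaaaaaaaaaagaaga
E2F3: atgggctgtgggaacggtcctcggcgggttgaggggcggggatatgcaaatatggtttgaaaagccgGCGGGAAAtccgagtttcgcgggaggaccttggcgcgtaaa
E2F7: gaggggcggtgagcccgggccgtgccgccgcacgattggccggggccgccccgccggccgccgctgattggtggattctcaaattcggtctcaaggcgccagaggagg

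The E2F1 window held 2 E2F sites, TTTGCCGC on the opposite strand from 33 to 26 bases before the start and TTTGGCGC on the gene's strand from 20 to 13 bases before it. In GENCODE 29 the E2F1 gene starts at 33686404 on chromosome 20, inside the printed stretch, while the other 3 stretches lie before the GENCODE 29 start of their gene. E2F2 held a single TTTGGCGC from 42 to 35 bases before its start, and the first E2F3 start held TTTCCCGC on the opposite strand from 53 to 46 bases before it. The second E2F3 start, E2F4, E2F6 and E2F7 held no match to these letters. The CCAAT box (CCAAT), present in 34.6% of RefSeq windows, was found 3 times in E2F1, 4 times at the first E2F3 start and 4 times in E2F7. The CHR, a cell cycle element searched as TTTGAA or TTCGAA and present in 16.4% of windows, was found only at the first E2F3 start among these windows. A match is a run of letters in the reference, and binding was not measured here.

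**Figure D1:**
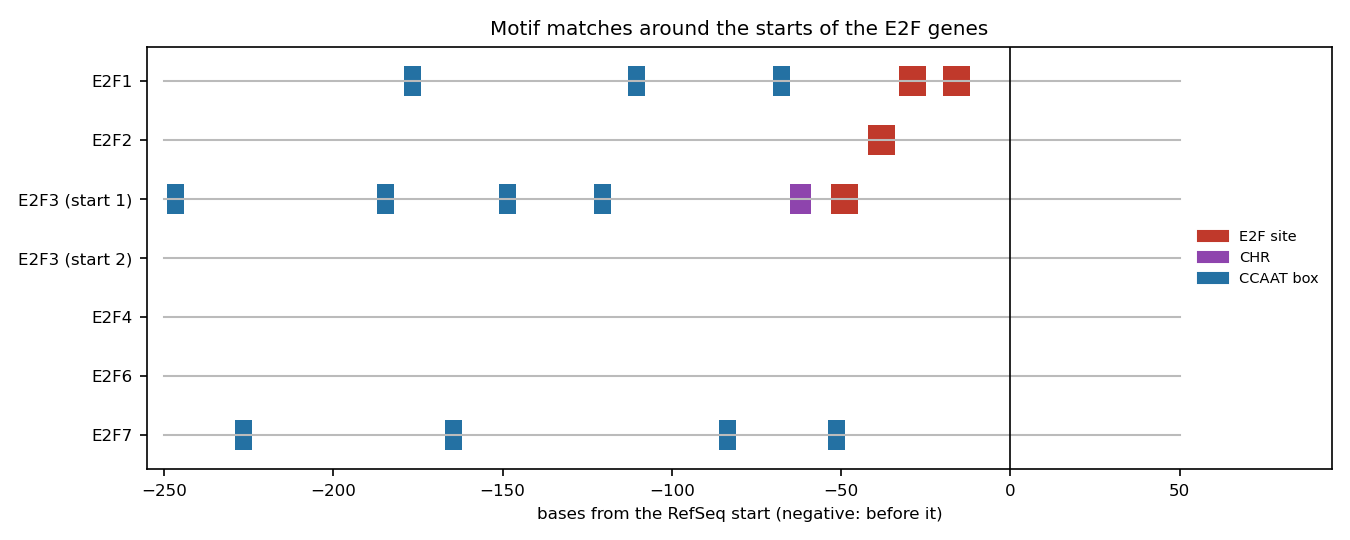
Motif matches in the RefSeq windows of 6 E2F genes, with position in bases from the start on the horizontal axis (0, vertical line) and 1 row per window. Red marks the E2F sites of E2F1 (2 matches), E2F2 (1) and the first E2F3 start (1), all between 53 and 13 bases before the start, and E2F7 has CCAAT boxes (blue) but no red mark.

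Libraries held 10930204 to 14819879 gene counts. Among prostate luminal markers, KLK2, KLK3, TMPRSS2, HOXB13, FOLH1, KRT8, KRT18 and SLC45A3 were all tested, and over the libraries HOXB13 ranged from 296 to 587 CPM (counts scaled to a common library size, with TMM factors), FOLH1 from 668 to 1674, KRT8 from 386 to 1221 and KRT18 from 319.6 to 966. The range was wider for KLK2 (5.94 to 683), KLK3 (44.2 to 2365), TMPRSS2 (68.5 to 1079) and SLC45A3 (42.1 to 729.7). Summed markers of other cell types were 0 to 2.70 CPM for basal epithelium, 11.2 to 37.5 for fibroblasts, 6.23 to 46.0 for endothelium and 0 to 0.410 for immune cells. COL1A1 (11.0 to 37.0) and VWF (6.23 to 46.0) carried the fibroblast and endothelial sums, and COL1A2, DCN, LUM, PECAM1 and CDH5 each stood at 0 in the lowest library and at no more than 0.707 CPM in the highest. Replicate 3 stood apart: it differed from replicates 1 and 2 by a chi-square of 7.43 to 87.9 per degree of freedom over genes, against 1.75 to 4.21 between replicates 1 and 2. E2F1 and E2F4 were higher in replicate 3 than in the mean of replicates 1 and 2 in 6 of 6 groups, and E2F2 and E2F8 in 5 of 6. E2F6 and E2F7 were higher in 1 of 6 and E2F3 and E2F5 in 0 of 6, with E2F5 at -1.28 to -0.33 on the log2 scale. The GC content of their longest transcripts was 62.5% (E2F1), 59.3% (E2F4), 57.5% (E2F2), 45.9% (E2F8), 44.4% (E2F6), 43.1% (E2F7), 45.2% (E2F3) and 38.3% (E2F5), and its part in these differences was not tested. Levels are bulk values, in which fewer cells in cycle and less RNA per cell cannot be told apart.

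A gene was called where its p-value in edgeR's quasi-likelihood test, adjusted by Benjamini-Hochberg over all tested genes, was under 0.05. R1881 with control siRNA raised 3 of 8 members (E2F1, E2F7 and E2F8) and lowered 0, where 27.0% of all genes were called in either direction and 13.8% were called higher. With E2F1 siRNA R1881 called 0 of 8 members, against 19.8% of all genes; edgeR gave 1 member at an unadjusted p under 0.05, E2F1, and DESeq2 called that 1 member after adjustment. With E2F2 siRNA R1881 raised 3 of 8 (E2F1, E2F7 and E2F8), against 22.8% of all genes called. Without overlap between vehicle and R1881 libraries were 4, 1 and 3 members in these comparisons, where 35.1%, 34.2% and 43.2% of all genes had groups that did not overlap in CPM. The shares called lower were 13.2%, 9.75% and 11.0%, and no member was among them. The median log2 fold change of the 8 members was 0.59, 0.053 and 0.57 in these comparisons, beside medians over all tested genes of 0.0018, -0.014 and -0.015.

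The E2F1 pool lowered 3 of 8 members with R1881 (E2F1, E2F7 and E2F8), where 9.34% of all genes were called and 4.92% were called lower. With vehicle it lowered E2F1 alone, 1 of 8, where 5.28% of all genes were called. The E2F2 pool lowered 5 of 8 with R1881 (E2F1, E2F2, E2F3, E2F7 and E2F8), where 30.3% of all genes were called and 14.4% lower, and 4 of 8 with vehicle (E2F1, E2F2, E2F7 and E2F8), where 27.3% were called and 13.1% lower. No pool raised a member over control siRNA, where 4.42% (R1881) and 2.36% (vehicle) of all genes were called higher with the E2F1 pool and 15.9% and 14.2% with the E2F2 pool. Without overlap with control libraries were 6 members with R1881 and 2 with vehicle for the E2F1 pool, against 32.4% and 14.9% of all genes, and 6 and 4 for the E2F2 pool, against 49.0% and 37.3%. Median changes of the 8 members were -1.02 and -0.31 with the E2F1 pool and -1.11 and -0.94 with the E2F2 pool, with R1881 and vehicle in turn, while the medians over all genes lay between -0.0059 and 0.030. These comparisons share control libraries, and the targets of the pools are among the members counted.

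**Figure D2:**
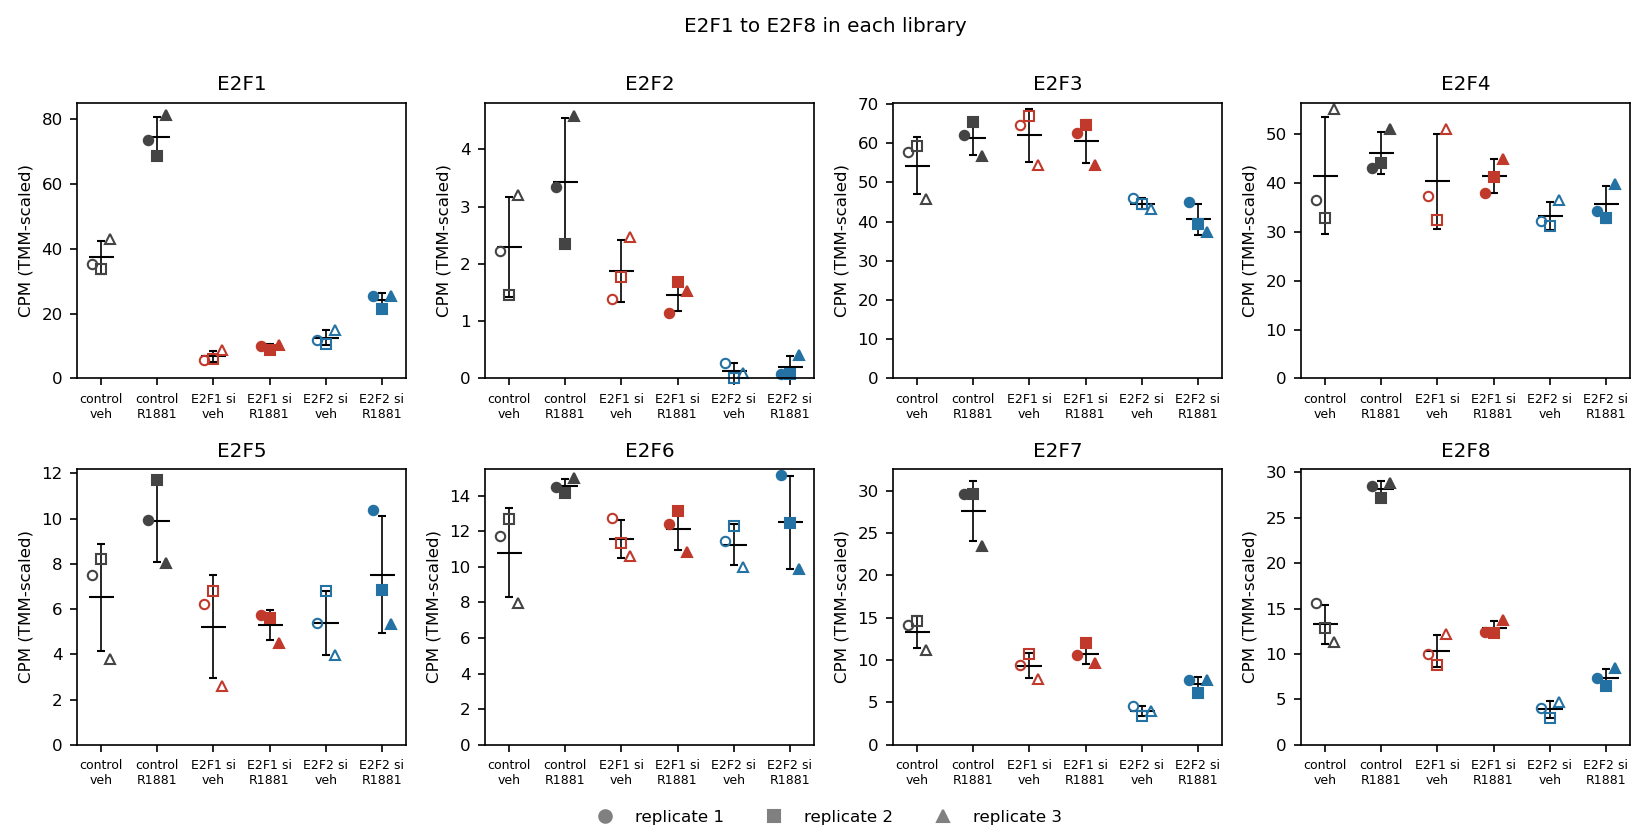
Level of each E2F gene in every library, in TMM-scaled CPM (vertical axes start at 0), for the 6 groups on the horizontal axis; open symbols are vehicle, filled symbols R1881, lines and bars the mean and SD of 3 libraries. Every gene but E2F3 has its highest group mean with control siRNA and R1881. For E2F1, E2F7 and E2F8 no library of another group reaches that group. E2F2 is at 0 to 0.416 CPM in the 6 libraries with E2F2 siRNA.

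E2F1 (ENSG00000101412, chromosome 20, 33675683 to 33686404, minus strand, 7 exon blocks) stood at 35.2, 33.6 and 43.0 CPM in the control siRNA libraries with vehicle, in the order of replicates 1 to 3. With R1881 it stood at 73.4, 68.6 and 81.2 CPM. The groups did not overlap, and the fitted change was 1.99-fold, a log2 fold change of 1.00 ± 0.16 (SE; edgeR quasi-likelihood test, adjusted p = 0.000173).

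With the E2F1 pool, E2F1 was at 5.79, 5.92 and 8.77 CPM with vehicle and at 10.1, 8.69 and 10.3 CPM with R1881. All 6 libraries lay far below every control library, which checks the labels of the pool. E2F1 was at 18.4% of its control level with vehicle (log2 fold change -2.45 ± 0.17, adjusted p = 5.11e-07, edgeR) and at 13.0% with R1881 (-2.94 ± 0.17, adjusted p = 2.5e-07). The vehicle and R1881 ranges with the E2F1 pool overlapped, and R1881 gave 0.50 ± 0.17 (95% interval 0.13 to 0.87, edgeR adjusted p = 0.0556). A block for the replicate number gave 0.51 with an adjusted p of 0.00214, and over the 24 alternatives the p ranged from 0.000608 to 0.207. It was also called with replicates 1 and 2 only (0.68, edgeR adjusted p = 0.000608) and by DESeq2 (0.50, adjusted p = 0.0422). Leaving out vehicle replicate 3 of control siRNA, of the E2F1 pool or of the E2F2 pool gave a call too.

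The E2F2 pool also lowered E2F1, the gene it was not aimed at; whether it acts on E2F1 mRNA directly was not tested. E2F1 was at 11.8, 10.8 and 15.1 CPM with vehicle and at 25.4, 21.5 and 25.5 CPM with R1881. All of these libraries were below every control library of the same treatment and above every E2F1 siRNA library of the same treatment. E2F1 was at 33.7% of control with vehicle (-1.57 ± 0.16, adjusted p = 3.71e-06, edgeR) and at 32.5% with R1881 (-1.62 ± 0.16, adjusted p = 1.69e-06). Against the E2F1 pool directly, E2F1 was higher with the E2F2 pool, by 0.88 ± 0.17 with vehicle (adjusted p = 0.00115) and by 1.32 ± 0.17 with R1881 (adjusted p = 3.41e-05, edgeR). R1881 still raised E2F1 1.92-fold with the E2F2 pool (0.94 ± 0.17, adjusted p = 0.00048, edgeR), and that rise differed from the rise with control siRNA by -0.056 ± 0.23 (95% interval -0.54 to 0.43, adjusted p = 0.98).

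E2F2 (ENSG00000007968, chromosome 1, 23506430 to 23531220, minus strand) was the lowest member per kilobase of exon in every group. It stood at 2.23, 1.45 and 3.20 CPM with control siRNA and vehicle, from 29, 21 and 48 counts. With control siRNA and R1881 it stood at 3.34, 2.36 and 4.59 CPM, a range that overlaps the vehicle range, and the change of 0.56 ± 0.36 was not called (95% interval -0.19 to 1.32, edgeR adjusted p = 0.275). The E2F2 pool left 3, 0 and 1 counts with vehicle and 1, 1 and 5 counts with R1881, so that no library of that pool reached the lowest library of the other pools. The fitted levels were 5.67% of control with vehicle (-4.14 ± 0.63, adjusted p = 0.00015, edgeR) and 6.02% with R1881 (-4.05 ± 0.54, adjusted p = 3.73e-05), each resting on these few counts. Leaving out 1 library moved them from -5.40 (without E2F2 siRNA vehicle replicate 1) to -3.62 with vehicle and from -5.18 (without E2F2 siRNA R1881 replicate 3) to -3.71 with R1881, all called.

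With the E2F1 pool, E2F2 was at 1.39, 1.77 and 2.46 CPM with vehicle and at 1.15, 1.68 and 1.53 CPM with R1881. With R1881 these 3 libraries lay below all 3 control libraries. The difference from control was -1.22 ± 0.38 with R1881 (43.0% of control, 95% interval -2.03 to -0.40, edgeR adjusted p = 0.0586) and -0.29 ± 0.38 with vehicle (95% interval -1.10 to 0.51, adjusted p = 0.817), and neither was called. The replicate block called the value with R1881 (-1.19, adjusted p = 0.00861), in a range over 24 alternatives of 0.00861 to 0.207. It was also called by DESeq2 (0.0254), with only the groups compared (0.0269), with replicates 1 and 2 (0.0314), and when single libraries of other groups were left out, control siRNA vehicle replicate 2 (0.0472), control siRNA vehicle replicate 3 (0.0278) or E2F2 siRNA R1881 replicate 3 (0.0463).

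E2F3 (ENSG00000112242, chromosome 6, 20401906 to 20493715, plus strand), the third activator, fell with the E2F2 pool in the presence of R1881. It stood at 57.7, 59.1 and 45.8 CPM with control siRNA and vehicle and at 62.1, 65.4 and 56.8 CPM with R1881. With the E2F2 pool it stood at 46.0, 44.4 and 43.2 CPM with vehicle and at 45.0, 39.4 and 37.4 CPM with R1881, so that with R1881 the groups did not overlap. The fall with R1881 was to 66.1% of control (-0.60 ± 0.12, adjusted p = 0.00114, edgeR). With vehicle the difference was -0.28 ± 0.12 (95% interval -0.53 to -0.035, adjusted p = 0.0849); with the replicate block it was called (-0.28, adjusted p = 0.00672), and the range over 24 alternatives was 0.000103 to 0.221. Without control siRNA vehicle replicate 3, the lowest of its group, the value was -0.40 with an adjusted p of 0.0136. It was also called with replicates 1 and 2 only (-0.37, edgeR adjusted p = 0.000103). The R1881 response of E2F3 with the E2F2 pool differed from that with control siRNA by -0.31 ± 0.17, which was not called (95% interval -0.67 to 0.040, edgeR adjusted p = 0.572).

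In the libraries with the E2F1 pool E2F3 was at 64.7, 66.8 and 54.3 CPM with vehicle and at 62.5, 64.6 and 54.3 CPM with R1881, overlapping control siRNA in both treatments. The differences from control were 0.19 ± 0.12 (95% interval -0.055 to 0.44) and -0.022 ± 0.12 (95% interval -0.27 to 0.23), neither called. The direct comparison of the E2F pools was called in both treatments: with the E2F2 pool E2F3 was lower, at a log2 fold change of -0.48 ± 0.12 with vehicle (adjusted p = 0.00576, edgeR) and -0.58 ± 0.12 with R1881 (adjusted p = 0.00203). R1881 gave E2F3 0.18 ± 0.12 with control siRNA, -0.035 ± 0.12 with the E2F1 pool and -0.13 ± 0.12 with the E2F2 pool, none of them called.

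**Figure D3:**
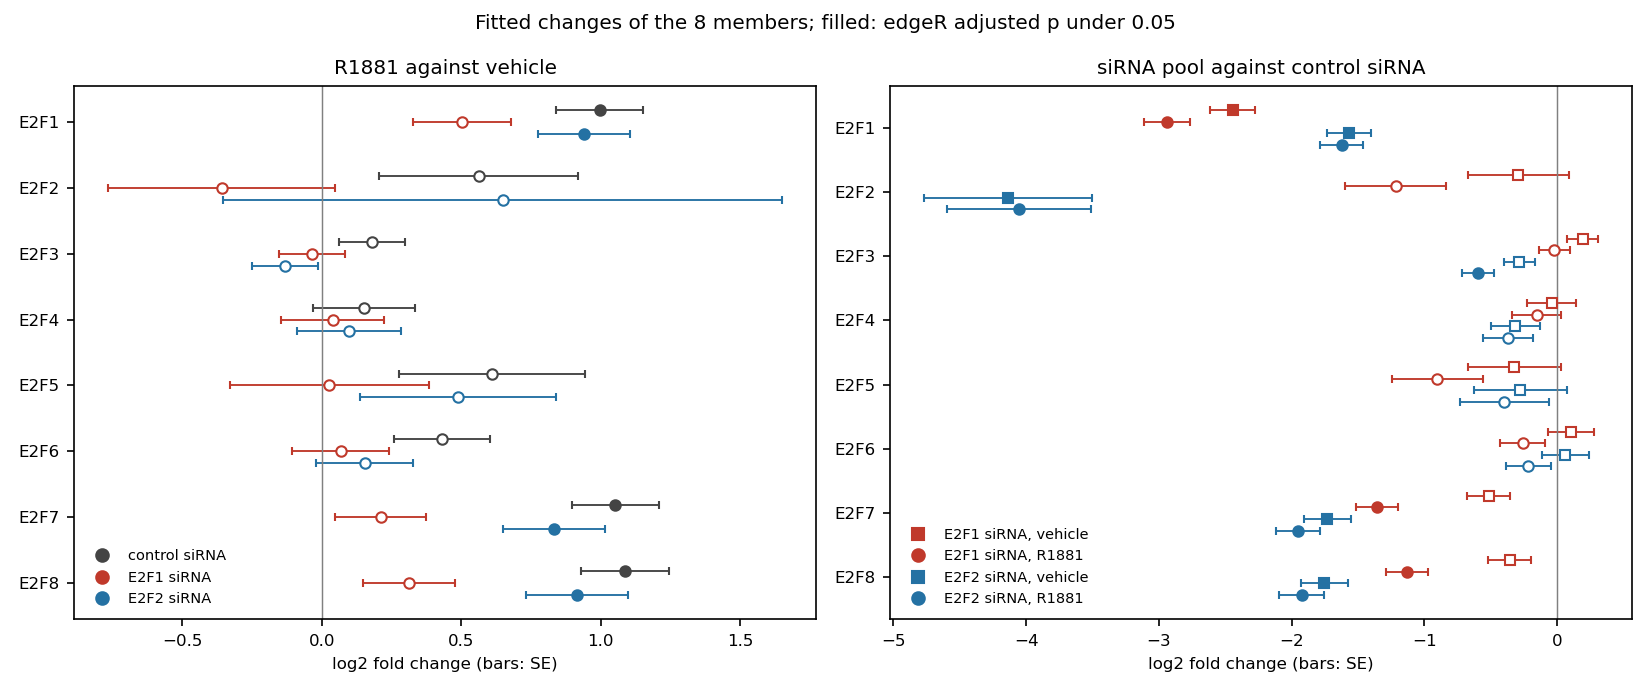
Fitted log2 fold changes of the 8 E2F genes with their SE, for R1881 against vehicle within each siRNA pool (left) and for each E2F pool against control siRNA (right); filled symbols have an edgeR adjusted p under 0.05. E2F7 and E2F8 moved by 1.05 and 1.09 with R1881 and control siRNA, and by -1.73 to -1.95 with the E2F2 pool.

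The members E2F4, E2F5 and E2F6 had no called change in the 11 comparisons. E2F4 (ENSG00000205250, chromosome 16, 67192169 to 67198918, plus strand), which partners p107 and p130, stood at 36.5, 32.8 and 55.2 CPM with control siRNA and vehicle and at 43.1, 44.1 and 51.1 CPM with R1881. It stood at 37.4, 32.5 and 51.2 CPM with the E2F1 pool and vehicle, and at 38.1, 41.3 and 45.0 CPM with that pool and R1881. Replicate 3 was the highest library in each of these groups. The table also lists 7 processed pseudogenes of E2F3, E2F4 and E2F6, none with more than 3 counts in a library. R1881 gave E2F4 0.15 ± 0.18 with control siRNA (95% interval -0.24 to 0.54, edgeR adjusted p = 0.604). With replicates 1 and 2 only this value was called (0.33, adjusted p = 0.0016), in a range over 24 alternatives of 0.0016 to 0.977.

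E2F4 was somewhat lower in value with the E2F2 pool, at 32.3, 31.1 and 36.6 CPM with vehicle and 34.3, 32.8 and 39.9 CPM with R1881. With R1881 these libraries lay below all 3 control libraries, and with vehicle they overlapped them. The differences were -0.32 ± 0.19 with vehicle (95% interval -0.71 to 0.079, adjusted p = 0.226, edgeR) and -0.37 ± 0.19 with R1881 (95% interval -0.77 to 0.023, adjusted p = 0.148). The difference with R1881 was called with only the groups compared (-0.41, adjusted p = 0.0167) and with replicates 1 and 2 (-0.38, adjusted p = 0.000498), in a range over 24 alternatives of 0.000498 to 0.344. With the replicate block the vehicle difference was called (-0.29, adjusted p = 0.0352), the lowest p of a range over 24 alternatives that reached 0.83.

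E2F5 (ENSG00000133740, chromosome 8, 85177225 to 85217158, plus strand) was counted over exons of which 969 bases, 16.3%, are shared with the C8orf59 gene on the opposite strand. The strand setting of the counting was not given in the sources used here, so reads of the 2 genes may not be told apart and its values are uncertain. It stood at 7.52, 8.23 and 3.80 CPM with control siRNA and vehicle and at 9.95, 11.7 and 8.05 CPM with R1881, ranges that overlap. R1881 gave 0.61 ± 0.33 (95% interval -0.10 to 1.32, edgeR adjusted p = 0.202), and with the replicate block 0.63, which was called (adjusted p = 0.0116, the lowest of a range over 24 alternatives that reached 0.468). It was also called with replicates 1 and 2 only (0.45, edgeR adjusted p = 0.0246).

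Under E2F1 siRNA E2F5 was at 6.23, 6.81 and 2.62 CPM with vehicle and at 5.75, 5.62 and 4.51 CPM with R1881. With R1881 all 3 libraries lay below the control libraries, and the difference was -0.90 ± 0.34 (95% interval -1.63 to -0.18, edgeR adjusted p = 0.124). The replicate block called it (-0.90, adjusted p = 0.00317), in a range over 24 alternatives of 0.000145 to 0.336. It was also called by edgeR with only the groups compared (-0.92, adjusted p = 0.0119) and with replicates 1 and 2 (-0.92, adjusted p = 0.000145). With the E2F2 pool E2F5 was at 5.36, 6.79 and 3.96 CPM with vehicle and at 10.4, 6.86 and 5.33 CPM with R1881, and both groups overlapped their controls.

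E2F6 (ENSG00000169016, chromosome 2, 11444375 to 11466177, minus strand), the Polycomb-linked repressor, stood at 11.7, 12.7 and 7.94 CPM with control siRNA and vehicle and at 14.5, 14.1 and 15.0 CPM with R1881. The groups did not overlap, and the difference was 0.43 ± 0.17 (95% interval 0.066 to 0.80, edgeR adjusted p = 0.077). The replicate block called it (0.44, adjusted p = 0.0108), as did leaving out control siRNA vehicle replicate 2 (0.57, adjusted p = 0.0391), in a range over 24 alternatives of 0.0108 to 0.251. In the 12 libraries with an E2F pool E2F6 ranged from 9.90 to 15.1 CPM, and its differences from control siRNA lay between -0.26 and 0.10 on the log2 scale. With the E2F1 pool and R1881 (12.4, 13.1 and 10.8 CPM) every library lay below every control library. That difference was -0.26 ± 0.17 and was not called (95% interval -0.63 to 0.10, edgeR adjusted p = 0.45). The other groups with an E2F pool overlapped control siRNA of the same treatment.

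E2F7 and E2F8, the atypical repressors, rose with androgen and fell with the E2F2 pool in both treatments, and with the E2F1 pool in the presence of R1881. E2F7 (ENSG00000165891, chromosome 12, 77021247 to 77065580, minus strand, 14 exon blocks) stood at 14.1, 14.7 and 11.1 CPM with control siRNA and vehicle and at 29.6, 29.6 and 23.4 CPM with R1881. Every R1881 library was above every vehicle library, a 2.07-fold rise (1.05 ± 0.16, adjusted p = 0.000104, edgeR). E2F8 (ENSG00000129173, chromosome 11, 19224063 to 19241620, minus strand, 14 exon blocks) stood at 15.6, 12.9 and 11.3 CPM and at 28.5, 27.1 and 28.8 CPM in the same groups. Its rise was 2.12-fold (1.09 ± 0.16, adjusted p = 8.87e-05, edgeR), again without overlap.

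Under E2F1 siRNA E2F7 was at 9.45, 10.7 and 7.77 CPM with vehicle and at 10.6, 12.0 and 9.62 CPM with R1881. E2F8 was at 10.0, 8.75 and 12.2 CPM with vehicle and at 12.4, 12.3 and 13.8 CPM with R1881. With R1881 both genes lay below every control library: E2F7 was at 39.0% of control (-1.36 ± 0.16, adjusted p = 5.85e-05, edgeR) and E2F8 at 45.6% (-1.13 ± 0.16, adjusted p = 0.000279). With vehicle E2F7 did not overlap control siRNA, with a difference of -0.52 ± 0.16 (95% interval -0.86 to -0.17, edgeR adjusted p = 0.0852), and E2F8 overlapped it, with -0.36 ± 0.16 (95% interval -0.70 to -0.013, adjusted p = 0.29). The replicate block called E2F7 with vehicle (-0.52, adjusted p = 0.0153), as did leaving out control siRNA vehicle replicate 3 (-0.63, adjusted p = 0.0274), in a range over 24 alternatives of 0.00522 to 0.547. E2F7 with vehicle was also called with replicates 1 and 2 only (-0.52, edgeR adjusted p = 0.00522). With replicates 1 and 2 only, E2F8 with vehicle was called (-0.59, adjusted p = 0.00241), in a range over 24 alternatives of 0.00241 to 0.804.

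The E2F2 pool gave the lowest E2F7 and E2F8 levels of the 6 groups. E2F7 was at 4.62, 3.40 and 3.96 CPM with vehicle and at 7.61, 6.11 and 7.66 CPM with R1881. E2F8 was at 4.07, 2.93 and 4.74 CPM with vehicle and at 7.35, 6.44 and 8.40 CPM with R1881. None of these libraries overlapped a control library of the same treatment. E2F7 fell to 30.1% of control with vehicle (-1.73 ± 0.18, adjusted p = 2.58e-06, edgeR) and to 25.8% with R1881 (-1.95 ± 0.16, adjusted p = 3.83e-07). E2F8 fell to 29.7% with vehicle (-1.75 ± 0.18, adjusted p = 2.67e-06) and to 26.3% with R1881 (-1.93 ± 0.17, adjusted p = 4.83e-07, edgeR).

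The E2F pools were also compared with each other. The E2F2 pool gave 5 of 8 called members in each treatment, 1 higher (E2F1) and 4 lower (E2F2, E2F3, E2F7 and E2F8), where 24.0% of all genes were called with R1881 (13.1% higher, 11.0% lower) and 30.6% with vehicle (16.1% and 14.4%). The same 5 members were those without overlap between the pools, against 47.6% of all genes with R1881 and 43.4% with vehicle. E2F7 differed by a log2 fold change of -1.22 ± 0.18 with vehicle (adjusted p = 8.45e-05, edgeR) and of -0.59 ± 0.17 with R1881 (adjusted p = 0.0163). The value with R1881 lost its call without E2F1 siRNA R1881 replicate 2 (-0.51, adjusted p = 0.0766) or without E2F2 siRNA R1881 replicate 2 (-0.50, adjusted p = 0.0798). E2F8 differed by -1.39 ± 0.18 with vehicle (adjusted p = 2.54e-05) and by -0.79 ± 0.17 with R1881 (adjusted p = 0.00259, edgeR). E2F7 and E2F8 were lower with the E2F2 pool, which left more E2F1 mRNA but less E2F2 and E2F3 mRNA than the E2F1 pool. The part of each in these differences was not tested.

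Whether the androgen response of a member differed between pools was tested as a difference of differences. R1881 raised E2F7 1.78-fold with the E2F2 pool (0.83 ± 0.18, adjusted p = 0.00286, edgeR) and E2F8 1.88-fold (0.91 ± 0.18, adjusted p = 0.00152). Under E2F1 siRNA R1881 gave E2F7 0.21 ± 0.16 (95% interval -0.14 to 0.56, edgeR adjusted p = 0.457) and E2F8 0.31 ± 0.16 (95% interval -0.035 to 0.66, adjusted p = 0.226), neither called. With replicates 1 and 2 only, that E2F8 value was called (0.39, adjusted p = 0.0305), in a range over 24 alternatives of 0.0305 to 0.521. The response with the E2F1 pool differed from that with control siRNA by -0.84 ± 0.23 for E2F7 (95% interval -1.32 to -0.36, edgeR adjusted p = 0.109) and by -0.77 ± 0.23 for E2F8 (95% interval -1.26 to -0.29, adjusted p = 0.155). For E2F1 the difference was -0.49 ± 0.23 (95% interval -0.99 to 0.0033, adjusted p = 0.499).

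In the test of that difference 0 of 8 members were called, against 0.685% of all genes; edgeR gave 2 members, E2F7 and E2F8, an unadjusted p under 0.05 (0.00192 and 0.00377), and DESeq2 called 2. In the fit with a replicate block both were called, E2F7 with -0.84 (adjusted p = 0.0141) and E2F8 with -0.77 (adjusted p = 0.0251), where 4.58% of all genes were called. Over the 24 alternatives the adjusted p ranged from 0.00143 to 0.264 for E2F7 and from 0.0251 to 0.347 for E2F8, and every alternative kept the negative sign. For the E2F2 pool 0 of 8 members were called, against 0.889% of all genes, with 0 at an unadjusted p under 0.05 in edgeR and 0 by DESeq2. There E2F7 differed by -0.22 ± 0.24 (95% interval -0.73 to 0.29) and E2F8 by -0.17 ± 0.24 (95% interval -0.69 to 0.35).

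Levels of different members were compared as CPM per kilobase of GENCODE 29 exon, since longer transcripts give more reads; the captured part of each gene was not known. In control cells with R1881 E2F1 was the most abundant member, at 29.7 ± 2.53 CPM per kilobase (SD, n = 3). E2F4 (12.9 ± 1.22) and E2F3 (11.9 ± 0.846) came next and overlapped each other, followed by E2F8 (6.80 ± 0.216), E2F7 (4.38 ± 0.568), E2F6 (3.57 ± 0.102), E2F5 (1.67 ± 0.309) and E2F2 (0.628 ± 0.205), each below the one before in every library. With vehicle E2F1 (14.9 ± 2.00), E2F4 (11.6 ± 3.35) and E2F3 (10.5 ± 1.41) overlapped in the order given. E2F8 (3.20 ± 0.518), E2F6 (2.65 ± 0.615) and E2F7 (2.11 ± 0.301) overlapped likewise below them, and E2F5 (1.10 ± 0.401) and E2F2 (0.420 ± 0.161) were lowest.

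Under E2F1 siRNA E2F3 and E2F4 led and overlapped, at 12.0 ± 1.30 and 11.3 ± 2.71 CPM per kilobase with vehicle and 11.7 ± 1.06 and 11.6 ± 0.969 with R1881. E2F1 was then in a range with E2F6 and E2F8 with vehicle (2.73 ± 0.673, 2.84 ± 0.266 and 2.49 ± 0.415), and stood above both with R1881 (3.87 ± 0.350, 2.98 ± 0.293 and 3.10 ± 0.198). E2F7 (1.48 ± 0.233 and 1.71 ± 0.194), E2F5 (0.880 ± 0.383 and 0.893 ± 0.115) and E2F2 (0.343 ± 0.0995 and 0.266 ± 0.0502) closed the order in both treatments, and the last pair overlapped with vehicle. With the E2F2 pool and vehicle E2F4 (9.31 ± 0.806) and E2F3 (8.62 ± 0.272) overlapped and E2F1 came below them at 5.02 ± 0.898. With R1881 E2F4 (9.95 ± 1.04), E2F1 (9.64 ± 0.913) and E2F3 (7.86 ± 0.771) overlapped in turn. E2F8 (0.945 ± 0.221 with vehicle) and E2F7 (0.634 ± 0.0974) were then below E2F6 (2.76 ± 0.284) and overlapped E2F5 (0.906 ± 0.239).

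The length-scaled levels of the 8 members summed to 46.5 ± 2.48 CPM per kilobase with control siRNA and vehicle and to 71.5 ± 2.43 with R1881 (SD, n = 3). With the E2F1 pool the sums were 34.0 ± 1.80 and 36.1 ± 0.687, and with the E2F2 pool 28.2 ± 1.26 and 34.8 ± 2.42. Activators (E2F1 to E2F3) made up 55.6% ± 1.33 of the sum in control cells with vehicle and 59.0% ± 0.695 with R1881. Their share was 44.4% ± 4.00 and 43.9% ± 2.08 with the E2F1 pool and 48.4% ± 0.535 and 50.5% ± 0.699 with the E2F2 pool, and in each treatment no library of an E2F pool reached the lowest control library. The atypical members E2F7 and E2F8 made up 11.5% ± 2.05 and 15.6% ± 1.10 in control cells, 11.7% ± 0.0821 and 13.3% ± 0.246 with the E2F1 pool, and 5.57% ± 0.834 and 8.38% ± 0.726 with the E2F2 pool. E2F4 to E2F6 held 32.9% ± 3.24 and 25.3% ± 0.830 in control cells and 41.2% ± 0.427 to 46.0% ± 1.36 in the groups with an E2F pool. Shares of a sum are not independent, and a fall of E2F1 raises the other shares. The shares also depend on the exon lengths used, since the captured part of each gene was not known, and the SD does not cover this. In plain CPM E2F1 (37.3) was below E2F3 (54.2) and E2F4 (41.5) with control siRNA and vehicle.

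**Figure D4:**
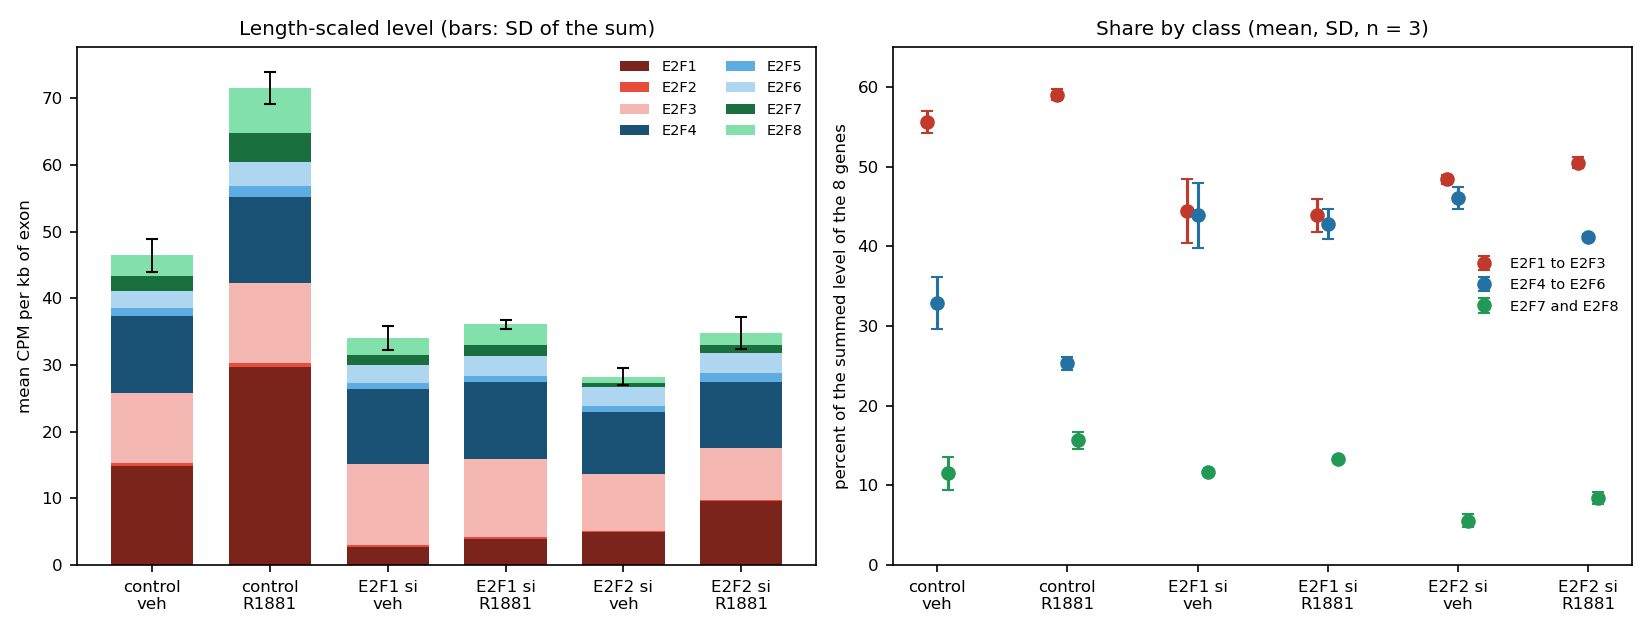
Left, mean length-scaled level of the 8 E2F genes stacked in each group, in CPM per kilobase of exon, with bars for the SD of the sum; right, the percent of that sum in the activators (E2F1 to E2F3), E2F4 to E2F6, and E2F7 with E2F8 (mean and SD, n = 3). The sum is highest with control siRNA and R1881 (71.5) and the E2F7 and E2F8 share is lowest with E2F2 siRNA (5.57% with vehicle).

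Genes with a pattern like a member's were sought among 11846 genes by the root mean square difference between the profiles of 6 group means on the log2 scale, each centred on its own mean. For E2F7 the nearest were CDCA8, a subunit of the chromosomal passenger complex (0.049), HIST1H2BM, a replication histone with near-identical copies (0.067), and ZWINT, a kinetochore protein (0.089). For E2F8 they were PLK1, a mitotic kinase (0.052), ZWINT (0.066) and CDCA3 (0.066), and the distance between E2F7 and E2F8 themselves was 0.10. Over the 6 groups E2F7 ranged by 2.74 and E2F8 by 2.82 on the log2 scale, so these distances are a small part of the range.

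E2F1 and E2F2, the targets, had no such close neighbour. The nearest to E2F1 were SCARA3 (0.55), ARL6IP1 (0.58) and NEURL1B (0.64), with E2F1 ranging by 3.44. The nearest to E2F2 were HIST2H2AB (0.54), the helicase PIF1 (0.57) and the adrenergic receptor ADRA2A (0.58), with E2F2 ranging by 3.76. E2F2 had 0 to 5 counts in each library of its own pool, so its range and distances depend on the prior count of 2. E2F3, E2F4, E2F5 and E2F6 spanned less than 1 log2 unit (0.61, 0.47, 0.999 and 0.45), and no neighbours were sought for them. These likenesses rest on 6 group means of the same 18 libraries.

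**Figure D5:**
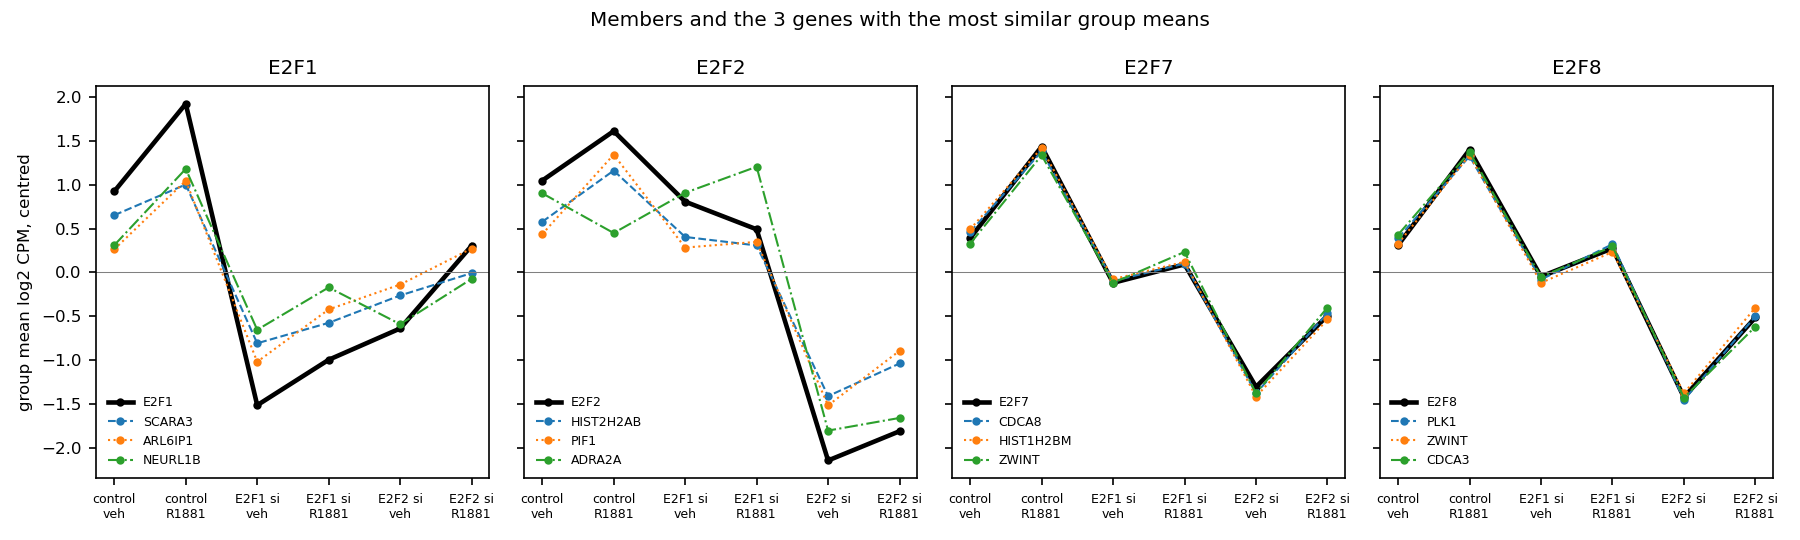
Group means of log2 CPM, centred on each gene's own mean, for E2F1, E2F2, E2F7 and E2F8 (black) and the 3 genes nearest to each (colours), over the 6 groups on the horizontal axis. The neighbours of E2F7 and E2F8 lie almost on the black line (0.049 to 0.089 root mean square difference), while those of E2F1 and E2F2 do not (0.54 to 0.64).

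The gene lists that follow are read beside the shares of all genes called: 27.0% for R1881 with control siRNA, 19.8% for it with the E2F1 pool, 9.34% (R1881) and 5.28% (vehicle) for the E2F1 pool, and 30.3% and 27.3% for the E2F2 pool. Among the DP partners and pocket proteins 5 of 6 genes were tested, and TFDP3 had 0 counts. R1881 with control siRNA raised TFDP1, the DP1 partner (0.31 ± 0.087, adjusted p = 0.0147, edgeR), and lowered TFDP2 (-0.30 ± 0.072, adjusted p = 0.00589) and RBL2, which encodes p130 (-0.46 ± 0.16, adjusted p = 0.0411). The median of the 5 was 0.083, beside 0.0018 over all genes. TFDP1 lost its call without control siRNA vehicle replicate 1 or 2 or control siRNA R1881 replicate 2, and only 1 of the 2 falls was called when any of 11 single libraries was left out. The E2F1 pool with R1881 lowered 1 of 5, TFDP1 (-0.41 ± 0.088, adjusted p = 0.0073), and 2 of 5 without control siRNA vehicle replicate 3 or with the replicate block. The E2F2 pool lowered TFDP1 and RBL1, the p107 gene, in both treatments (RBL1 -1.17 ± 0.22 with R1881, adjusted p = 0.000939; -0.73 ± 0.23 with vehicle, adjusted p = 0.0246) and TFDP2 with vehicle (-0.28 ± 0.072, adjusted p = 0.00819). List medians were -0.21 with the E2F1 pool and R1881, and -0.11 (R1881) and -0.28 (vehicle) with the E2F2 pool.

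RBL2 went the other way with the E2F2 pool. Its control siRNA level was 203 ± 47.4 CPM (SD, n = 3) in vehicle and 148 ± 13.8 in R1881, against 379 ± 29.6 and 242 ± 15.4 with the E2F2 pool. The rises were 0.90 ± 0.16 with vehicle (adjusted p = 0.000534, edgeR) and 0.71 ± 0.16 with R1881 (adjusted p = 0.00284). RB1, the retinoblastoma gene, was called in none of the 11 comparisons, with 54.9 ± 25.1 CPM in control cells with vehicle and 58.1 ± 11.2 with R1881.

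Of the MuvB subunits with MYBL2 and FOXM1, which drive late cell cycle genes, R1881 with control siRNA raised 3 of 7: LIN52 (0.77 ± 0.16), MYBL2 (0.86 ± 0.15) and FOXM1 (0.64 ± 0.17), with a list median of 0.64. The E2F1 pool with R1881 lowered MYBL2 (-0.90 ± 0.15, adjusted p = 0.00123, edgeR) and FOXM1 (-0.80 ± 0.17, adjusted p = 0.00649), 2 of 7, and with vehicle it called 0 of 7 (1 at an unadjusted p under 0.05 in edgeR, 0 by DESeq2, 2 with the replicate block). The E2F2 pool lowered 4 of 7 with R1881, MYBL2 (-1.82 ± 0.16), FOXM1 (-1.90 ± 0.17), LIN9 (-1.42 ± 0.37) and LIN54 (-0.56 ± 0.11), and 2 of 7 with vehicle, MYBL2 (-1.95 ± 0.16) and FOXM1 (-1.87 ± 0.18). That last count was 4 lower and 1 higher with the replicate block, and 5 lower without control siRNA vehicle replicate 3. The list medians were -0.22 with the E2F1 pool and R1881 and -0.56 with the E2F2 pool and R1881.

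R1881 with control siRNA called 0 of 9 genes of the E2F6 repressor complex (0 at an unadjusted p under 0.05 in edgeR, 0 by DESeq2), and the E2F1 pool called 0 of 9 with R1881 (1 and 0) and with vehicle (0 and 0). The E2F2 pool lowered 3 of 9 in each treatment, L3MBTL2 (-0.57 ± 0.13 with R1881, adjusted p = 0.00367), EHMT1 (-0.42 ± 0.14, adjusted p = 0.0322) and EHMT2 (-0.58 ± 0.14, adjusted p = 0.00428, edgeR), of which the last pair encode histone H3 lysine methyltransferases. None of the 9 was called higher. The share called is near the 30.3% (R1881) and 27.3% (vehicle) of all genes called in either direction there. The shares of all genes called lower were 14.4% and 13.1%. Between the E2F pools with vehicle 3 of 9 were lower (L3MBTL2, EHMT1 and MAX) and 1 higher (RNF2) with the E2F2 pool, where 30.6% of all genes were called. With the replicate block the pool lowered 5 of 9 in place of 3 with R1881, and R1881 with control siRNA raised 2 of 9. The list median for the E2F2 pool with R1881 was -0.42, beside 0.030 over all genes.

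The E2F turnover list held SKP2, CCNF, FZR1, CDC20, CCNA2 and UBE2C, of which CCNA2 encodes a cyclin and UBE2C a ubiquitin-conjugating enzyme. R1881 with control siRNA raised 5 of these 6, with a median of 0.76. SKP2, an F-box protein that marks E2F1 for destruction, rose by 0.66 ± 0.13 (adjusted p = 0.00101, edgeR) and CCNF, cyclin F, by 0.58 ± 0.14 (adjusted p = 0.00736). The E2F1 pool with R1881 lowered 5 of 6 (median -0.68), a count that was 3 without E2F1 siRNA R1881 replicate 1 or control siRNA R1881 replicate 2. With vehicle it called 0 of 6 (2 at an unadjusted p under 0.05 in edgeR, 0 by DESeq2, 2 with the replicate block), and R1881 with E2F1 siRNA called 0 of 6 (2, 2 and 2). The E2F2 pool with R1881 lowered 6 of 6 (median -1.49), among them SKP2 (-1.23 ± 0.13, adjusted p = 3.4e-06) and CCNF (-1.16 ± 0.15, adjusted p = 2.35e-05, edgeR).

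Upstream of the family, 7 of 8 cyclin and kinase genes were tested (CCND2 reached 0.208 CPM at most). CDK2, the cyclin E and cyclin A kinase, rose with R1881 and control siRNA (0.94 ± 0.095, adjusted p = 2.05e-06, edgeR), and its response was smaller with the E2F1 pool by a called difference (-0.71 ± 0.13, adjusted p = 0.0209), a call that was lost when any of 7 single libraries was left out. CDK4 and CDK6 also rose (0.37 ± 0.086 and 1.89 ± 0.33), 3 of 7 in all (5 with the replicate block). The E2F1 pool with R1881 lowered 5 of 7, CCND1, CDK4, CCNE1, CCNE2 and CDK2, by -0.21 to -1.15, a count that was 2 or 3 when any of 5 single libraries was left out. List medians were 0.37 for R1881 with control siRNA, -0.38 for the E2F1 pool with R1881 and -0.68 for the E2F2 pool with R1881. The E2F2 pool with R1881 lowered 4 of 7 (CDK2, CDK4, CCNE1 and CCNE2) and raised CCND1 (0.19 ± 0.061, adjusted p = 0.0237, edgeR), the latter lost when any of 4 single libraries was left out.

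Among 7 CDK inhibitor genes CDKN1A, which encodes p21, had the largest called changes with the E2F2 pool. Its control siRNA level was 201 ± 30.6 CPM (SD, n = 3) in vehicle and 114 ± 8.67 in R1881, against 1130 ± 109 and 459 ± 52.6 with the E2F2 pool. The rises were 2.49 ± 0.12 with vehicle (adjusted p = 3.67e-09, edgeR) and 2.02 ± 0.12 with R1881 (adjusted p = 1.59e-08). Under E2F1 siRNA it was at 212 ± 10.4 and 127 ± 10.2 CPM, and neither difference from control was called. R1881 with control siRNA lowered CDKN1A (-0.83 ± 0.12, adjusted p = 5.89e-05) and raised 2 of 7, CDKN2C and CDKN2D (list median -0.15). The fall was of 1 of 7 genes, and of 2 with the replicate block or when any of 4 single libraries was left out. The E2F2 pool raised 2 and lowered 3 of the 7 with R1881 (median -0.16) and raised 2 and lowered 2 with vehicle (median -0.080). The E2F1 pool lowered 3 and raised 0 of the 7 with vehicle (median -0.26), where 2.92% of all genes were called lower. With R1881 it lowered 2 and raised 1 (median -0.13), and DESeq2 called 2 there. CDKN2C, the p18 gene, changed in several comparisons: it rose with R1881 and control siRNA (0.82 ± 0.16, adjusted p = 0.00107) and fell with the E2F1 pool and R1881 (-1.29 ± 0.16, adjusted p = 0.000109) and with the E2F2 pool and R1881 (-1.53 ± 0.16, adjusted p = 4.02e-06, edgeR).

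All of the 30 classical G1/S targets of E2F, genes of replication licensing, nucleotide synthesis and the replication fork, were tested. R1881 with control siRNA raised 28 of 30 and lowered 0, with a median of 0.80, and the smallest p were those of FEN1, a flap nuclease (1.08 ± 0.080), CDC6, a licensing factor (1.19 ± 0.092), and TYMS, thymidylate synthase (0.99 ± 0.084). CDC6 went from 46.8 ± 4.03 CPM to 107 ± 2.91 (SD, n = 3). Under E2F1 siRNA R1881 raised 4 of 30 (CDC6, CDC25A, FEN1 and SLBP, median 0.11; 9 of 30 with the replicate block, 8 without control siRNA vehicle replicate 3), and with the E2F2 pool 18 of 30 (median 0.48). The shares of all genes called higher in these comparisons were 13.8%, 10.1% and 11.8%.

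The E2F1 pool lowered 26 of 30 G1/S targets with R1881 (median -0.70), where 4.92% of all genes were called lower. Among them were MCM10, a replication initiation factor (-1.07 ± 0.097, adjusted p = 6.98e-06, edgeR), and the CDC25A phosphatase (-1.04 ± 0.097, adjusted p = 7.88e-06). With vehicle it lowered 3 of 30, CDC25A, RRM2 and MCM3, and raised 2, UNG and CDC6 (median -0.056), where 2.92% were called lower and 2.36% higher. The count of falls was 1 without control siRNA vehicle replicate 1 or E2F1 siRNA vehicle replicate 2, and the count of rises was 0 or 1 when any of 7 single libraries was left out. The E2F2 pool lowered 30 of 30 with R1881 (median -1.41; 14.4% of all genes lower) and 27 of 30 with vehicle (median -1.24; 13.1%). TYMS was at 162 ± 5.79 CPM with control siRNA and R1881, at 98.6 ± 4.36 with the E2F1 pool and at 45.8 ± 4.74 with the E2F2 pool.

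The difference in androgen response between the E2F1 pool and control was called for 8 of 30 G1/S targets, all toward a smaller rise (median -0.69), where 0.310% of all genes were called lower. They included MCM4, a helicase subunit (-0.85 ± 0.11, adjusted p = 0.00218, edgeR), TYMS (-0.80 ± 0.12, adjusted p = 0.00469) and CDC6 (-0.84 ± 0.13, adjusted p = 0.00647). The count was 25 with the replicate block, 5 when any of 5 single libraries was left out (control siRNA R1881 replicate 1 or 2, E2F1 siRNA R1881 replicate 1 or 2, or E2F1 siRNA vehicle replicate 1). For the E2F2 pool 1 of 30 was called, MCM6 (-0.62 ± 0.12, adjusted p = 0.0231; median -0.21; lost or joined by another when any of 7 single libraries was left out), where 0.329% of all genes were called lower.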

How the data were processed

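The deposited table holds whole-number counts per gene for 18 libraries (TruSeq RNA Exome, an exon capture). The authors' tools, per the submitters' processing notes, were Subread 1.6.4 (featureCounts), Picard 1.97, TopHat2 2.0.13 and CASAVA 1.8.2, on GRCh38. Their settings, strand included, are not given in the sources used here.

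Genes were kept by edgeR's filter on group (minimum count 10, minimum total 15), scaled by TMM, and fitted with 6 group means in 1 model over all 18 libraries with edgeR 4.0.16 (quasi-likelihood test) in R 4.3.3. P-values were adjusted by Benjamini-Hochberg over 15185 genes in each of 11 comparisons. The 95% intervals use the fit's degrees of freedom. The fit was also run on simulated data, but the outcome is not given here, so nothing is drawn from it. Alternatives were RLE scaling, no filter, DESeq2 1.42.0, only the groups compared, the replicate number as a block, replicates 1 and 2 only, and each of 18 libraries left out, 24 fits in all.

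Same-numbered libraries deviated together (every pair's r over 0.1) in 8 of 11 comparisons; the labels do not say what a number marks, so p-values measure the spread between these samples. No 2 replicates agreed within sampling noise. Exon lengths, GC and positions came from GENCODE 29. Named were the 8 members, the 3 nearest patterns of members spanning 1 log2 unit (prior count 2, average log2 CPM at least 1), all genes of lists of up to 10, and the 3 smallest p of the list of 30; other genes of that list are named where 5 or fewer were called or to follow a gene across groups, after their values were seen. Members, lists and tests were chosen with earlier results of these data known. Some markers of the luminal list are not reported here.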

Additional observations from a re-analysis of the deposited data

How the results depend on the processing

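Under RLE scaling all 88 changes (8 members in 11 comparisons) kept their direction and their side of the threshold. No called change was lost under any of the 6 alternatives that keep or drop whole settings; leaving out single libraries ended the call of E2F7 between the E2F pools with R1881 as given above. The replicate block added 11 calls and changed no other call. Besides those given above, it called E2F4 with the E2F2 pool and R1881 (-0.37, adjusted p = 0.00904). In that comparison same-numbered libraries had r from 0.082 to 0.33, so not every pair was over 0.1. Fits without a block also called that value, as the report gives. Calls rose from 3 to 5 members for R1881 with control siRNA. The block added E2F5 and E2F6 there, and replicates 1 and 2 only added E2F4 and E2F5. For R1881 with the E2F1 pool they rose from 0 to 1 (block or DESeq2) or 2 (replicates 1 and 2). For the E2F1 pool with R1881 they rose from 3 to 5 (block, replicates 1 and 2, or only the groups compared). With vehicle that pool went from 1 to 2 (block) or 3 (replicates 1 and 2). For the difference in R1881 response with the E2F1 pool calls rose from 0 to 2 (block, replicates 1 and 2, or DESeq2).

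With replicates 1 and 2 only, uncalled values changed sign: E2F5 under R1881 with the E2F1 pool (-0.20), E2F2 under R1881 with the E2F2 pool (-0.67), E2F4 (0.020) and E2F6 (-0.015) for the E2F1 pool with vehicle, E2F6 (-0.045) for the E2F2 pool with vehicle, E2F5 between the E2F pools with vehicle (-0.10; -0.0074 without a filter and -0.012 with only the groups compared), and E2F1 (0.011), E2F2 (-1.31), E2F5 (0.057) and E2F8 (0.0091) for the difference in response with the E2F2 pool. The cause was not tested.

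Leaving out 1 library gave 0 to 1 called members for R1881 with the E2F1 pool and 1 to 2 for the E2F1 pool with vehicle. Uncalled values that changed sign ranged, for R1881 with the E2F1 pool, from -0.12 to 0.039 (E2F3), -0.094 to 0.25 (E2F4) and -0.30 to 0.26 (E2F5), and with the E2F2 pool from -0.48 to 1.91 (E2F2) and -0.0040 to 0.30 (E2F6). For the E2F1 pool they ranged from -0.077 to 0.049 (E2F3, R1881), -0.55 to 0.036 (E2F2, vehicle), -0.25 to 0.22 (E2F4, vehicle), -0.60 to 0.0024 (E2F5, vehicle) and -0.076 to 0.24 (E2F6, vehicle). E2F6 ranged from -0.12 to 0.19 for the E2F2 pool with vehicle and, between the E2F pools, from -0.12 to 0.19 with R1881 and -0.11 to 0.033 with vehicle, where E2F5 ranged from -0.28 to 0.27. For the differences in response they ranged from -0.37 to 0.094 (E2F4, E2F1 pool) and, with the E2F2 pool, from -0.16 to 0.11 (E2F1), -1.04 to 1.34 (E2F2), -0.31 to 0.089 (E2F4), -0.42 to 0.17 (E2F5) and -0.33 to 0.0023 (E2F8).

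The number of all genes called also moved with the setting. It went from 104 to between 21 (only the groups compared) and 1844 (replicates 1 and 2) for the difference in response with the E2F1 pool, from 135 to between 40 and 1767 with the E2F2 pool, from 802 to between 17 and 2864 for the E2F1 pool with vehicle, and from 1418 to between 903 (no filter) and 4487 with R1881. For R1881 with control siRNA it went from 4105 to between 1842 and 7205, for the E2F2 pool with vehicle from 4145 to between 1793 and 6962, and, with replicates 1 and 2, from 3009 to 5829 for R1881 with the E2F1 pool, from 3465 to 6927 for it with the E2F2 pool, from 4601 to 7828 for the E2F2 pool with R1881, and from 3648 to 6810 (R1881) and 4641 to 7670 (vehicle) between the E2F pools. Counts of the gene lists moved by over 1.5 times in 36 of 154 cases with the block and 51 of 154 with replicates 1 and 2. Depth limits E2F2, at 0 to 5 counts per library with its own pool.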
